A study of Mus musculus with 6 samples.

Results

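The natriuretic peptide and adrenomedullin genes were followed in heart RNA as a list of 10: the peptide genes Nppa, Nppb and Adm, the natriuretic peptide receptors Npr1, Npr2 and Npr3, the processing protease Corin, and the adrenomedullin receptor genes Calcrl, Ramp2 and Ramp3. They were taken by symbol from 36564 genes with a value, and all 10 were among the 11386 genes that passed the filter on low values. Hearts of mice aged 32 weeks were sequenced in 2 groups of 3 libraries. The first group lacked both apolipoprotein E and the metalloproteinase inhibitor TIMP3 (ApoE-/- Timp3-/-, libraries 4, 5 and 6, here the double mutants), and the second was their ApoE-/- littermates (libraries 1, 2 and 3). Both groups therefore carry the ApoE mutation, which raises blood cholesterol, and neither is wild type. The labels give neither the alleles used nor the chambers of the heart that were taken. Values are FPKM, the fragments of a transcript divided by its length in kilobases and by the mapped fragments of its library, summed over the transcripts of a gene. FPKM is per length, so levels are set side by side between genes. They still depend on the transcripts to which Cufflinks gave the fragments.

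Atrial natriuretic peptide (ANP, from Nppa) and B-type natriuretic peptide (BNP, from Nppb) are hormones that heart muscle releases under stretch, and corin is the cell-surface protease that cuts pro-ANP to its active form. ANP and BNP act through the guanylyl cyclase receptor encoded by Npr1, C-type natriuretic peptide acts through that of Npr2, and the receptor of Npr3 clears the peptides. Adrenomedullin is a peptide that widens vessels; it binds the receptor encoded by Calcrl when a RAMP protein sits beside it, RAMP2 or RAMP3 giving adrenomedullin receptors and RAMP1 giving the receptor for calcitonin gene-related peptide.

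The libraries held between 654 and 1339 aligned megabases, library 2 being the deepest. Timp3 was listed at 20.2, 28.0 and 29.6 FPKM in the double mutants, against 52.1, 38.0 and 36.3 FPKM in ApoE-/- hearts, so the targeted gene was lower (log2 difference -0.61, limma adjusted p = 0.287) and not lost. The labels do not say which stretch of Timp3 was deleted, so its reads cannot check them, and the genotypes are used as labelled. Ventricular marker genes were high in every library, at a summed scaled FPKM of 6394 to 8651 in the double mutants and 5441 to 8068 in ApoE-/- hearts. Atrial marker genes varied widely among libraries. All 10 had a log2 difference above 0, and for every 1 of them the genotypes overlapped. Myl7, the atrial myosin light chain, was at 13.4, 173 and 229 FPKM in the double mutants and at 409, 2.09 and 1.21 FPKM in ApoE-/- hearts. Libraries 1, 5 and 6 were thus high and libraries 2, 3 and 4 low. The high set held 2 double mutants and 1 ApoE-/- library, and the low set 1 and 2. Red cell genes summed to 473 to 12281 in the double mutants, with library 4 highest, against 113 to 489 in ApoE-/- hearts. All 4 tested red cell genes were higher at an unadjusted p under 0.05 (limma), against 6.96% of all tested genes. The part of red cells in the members' values was not tested.

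None of the 10 genes passed limma's test of the genotypes over all genes, in which 0.0439% of tested genes passed at an adjusted p under 0.05 (0.0263% higher and 0.0176% lower). At an unadjusted p under 0.05 only Npr1 passed, lower in the double mutants, against 12.2% of all tested genes (6.96% higher and 5.23% lower). Npr1 was also the only member whose scaled values did not overlap between the groups, a separation found for 19.2% of all tested genes (9.99% higher and 9.2% lower). Of the 10, 4 lay above 0 and 6 below, with a median log2 difference of -0.17, against -0.0061 over all tested genes.

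**Figure D1:**
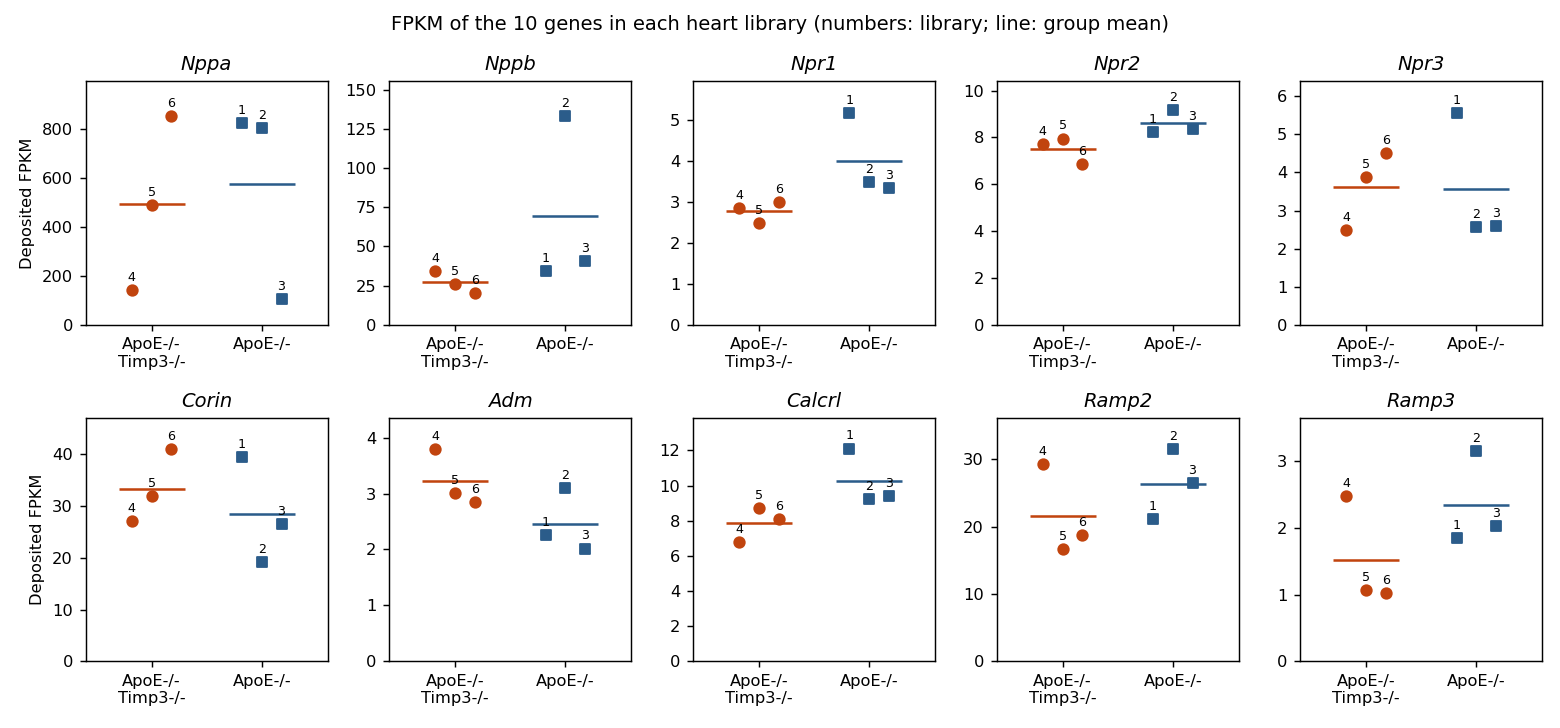
Deposited FPKM of each of the 10 genes (y axis, own scale per panel, from 0) in the 3 double mutant libraries (circles) and the 3 ApoE-/- libraries (squares), with the library number above each point and a line at the group mean. Nppa runs from 104 to 852 FPKM within both groups together, Nppb is highest in library 2 at 133 FPKM, and Npr1 is lower in all 3 double mutants.

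The members spanned a wide range of levels. The median over the 6 libraries was 646 FPKM for Nppa, 34.4 for Nppb, 29.5 for Corin and 23.8 for Ramp2. It was 8.97 for Calcrl and 8.10 for Npr2, and 3.23, 3.17, 2.93 and 1.94 for Npr3, Npr1, Adm and Ramp3. Neighbours in that order overlapped in their ranges over libraries, except Ramp2 with Calcrl and Npr2 with Npr3. Among libraries the peptide genes of heart muscle varied most: the highest scaled level was 7.49 times the lowest for Nppa and 6.56 times for Nppb. For the other 8 members that ratio lay between 1.34 for Npr2 and 3.08 for Ramp3.

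Nppa and Nppb lie close together on the + strand of chromosome 4, Nppa at 147374831 to 147376188 and Nppb at 147359897 to 147361314 (build NCBIM37), each with 1 reference transcript in the files. Their promoters are shown because these 2 genes varied most among the libraries. The sequences are the 250 bases before the annotated start, from RefSeq on GRCm38.p6, chr4:148000472-148000721 for Nppa and chr4:147985650-147985899 for Nppb, both on the + strand. Capitals mark matches on either strand, which do not overlap one another. The letters searched were GATA for the GATA factors of heart muscle, CATTCC for the element bound by TEAD factors, AAGTG for a core of NKX2-5 sites, and TATAAA for the box near a start site.
Nppa: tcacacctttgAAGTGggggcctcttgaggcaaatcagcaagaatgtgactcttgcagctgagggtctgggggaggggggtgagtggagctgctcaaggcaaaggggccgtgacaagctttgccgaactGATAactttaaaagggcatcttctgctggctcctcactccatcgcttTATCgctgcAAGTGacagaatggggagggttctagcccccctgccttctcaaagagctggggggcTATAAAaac
Nppb: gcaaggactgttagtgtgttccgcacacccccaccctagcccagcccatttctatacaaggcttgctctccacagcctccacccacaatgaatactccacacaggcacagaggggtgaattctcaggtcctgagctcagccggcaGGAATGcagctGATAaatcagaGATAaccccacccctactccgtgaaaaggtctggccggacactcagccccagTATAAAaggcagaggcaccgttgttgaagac

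Nppa held GATA at 121 bases before the start and, on the other strand, at 74, AAGTG at 239 and 65, and TATAAA at 9. Nppb held GATA at 94 and 83, CATTCC on the other strand at 105, and TATAAA at 31; positions give the leftmost base of a match. In windows from 250 bases before to 50 after the start of 32851 genes, 57.9% held GATA, 46.4% AAGTG, 14.7% CATTCC and 13.6% TATAAA. The pattern searched for a CArG box, the site of serum response factor, matched in 1.63% of windows and in neither peptide gene's. Sites that depart from the searched pattern would be missed, so a site of this factor is not excluded. The promoter table held 9 of the 10 members, all but Ramp2.

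Nppa, the ANP gene, was the highest member and did not separate by genotype. It was listed at 142, 491 and 852 FPKM in libraries 4, 5 and 6 of the double mutants, against 823, 802 and 104 FPKM in libraries 1, 2 and 3 of ApoE-/- hearts. Each group thus held a low library, a high one and a further value, and the groups overlapped over nearly their whole range. The scaled means were 510 ± 354 and 539 ± 372 in double mutant and ApoE-/- hearts (SD, n = 3 each). The log2 difference was 0.0029 ± 0.90 (SE), with a 95% interval of -2.12 to 2.13 (limma adjusted p = 0.999), and it was 1.52 with libraries weighted by their spread (limma adjusted p = 0.320, the lowest over all alternatives). The interval spans more than 2 units on the log2 scale either way, so the data do not show that the level was alike.

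Nppa was next set against Myl7, since atrial muscle makes far more ANP than ventricular muscle. Within bulk tissue, fewer cells of a type and less RNA per cell cannot be told apart. On the log2 scale Nppa exceeded Myl7 by 3.31, 1.497 and 1.89 in libraries 4, 5 and 6 of the double mutants, against 1.01, 8.02 and 5.62 in libraries 1, 2 and 3 of ApoE-/- hearts. The smallest and the largest of these values were both in ApoE-/- hearts. The difference between the groups was -2.65, with an exact two-sided permutation p of 0.4, where 3 against 3 libraries cannot go below 0.1. It was -1.08 without library 2 and -4.57 without library 1. Myl4, a further atrial light chain, and Sln, the atrial calcium pump inhibitor sarcolipin, were also used in place of Myl7. The difference was then -1.68 and -1.70 (exact permutation p = 0.4 and 0.7). The log2 difference of Nppa alone was 0.0029, and those of Myl7, Myl4 and Sln were 2.65, 1.69 and 1.70. These relative differences over all libraries thus restate those of the atrial genes, and do not show that Nppa was lower for its atrial content.

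In 5 libraries Nppa was high where Myl7 was high: libraries 1, 5 and 6 had 823, 491 and 852 FPKM of Nppa, and libraries 3 and 4, with Myl7 at 1.21 and 13.4 FPKM, had 104 and 142. Library 2 departed from that, with Nppa at 802 FPKM and Myl7 at 2.09. The interval that Cufflinks gave in the authors' file for Nppa in library 2 was 792 to 812 FPKM, against 99.2 to 108 FPKM in library 3, and these intervals cover the error of estimation within a library and not the spread between hearts. Because the libraries fell into separate sets of 3 by Myl7, no pooled correlation of Nppa with Myl7 is given, and 3 libraries are too few for one within a set. Among high-Myl7 libraries the log2 difference of Nppa between the double mutants (5 and 6) and ApoE-/- library 1 was -0.056, and among low-Myl7 libraries that between the double mutant (4) and ApoE-/- libraries 2 and 3 was -1.11. All 10 atrial markers had a log2 difference above 0, with a median of 0.92, and no marker of the 10 passed unadjusted. Their summed scaled level ran from 84.7 to 724 in the double mutants and from 41.6 to 867 in ApoE-/- hearts, and its part in the Nppa values was not tested.

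**Figure D2:**
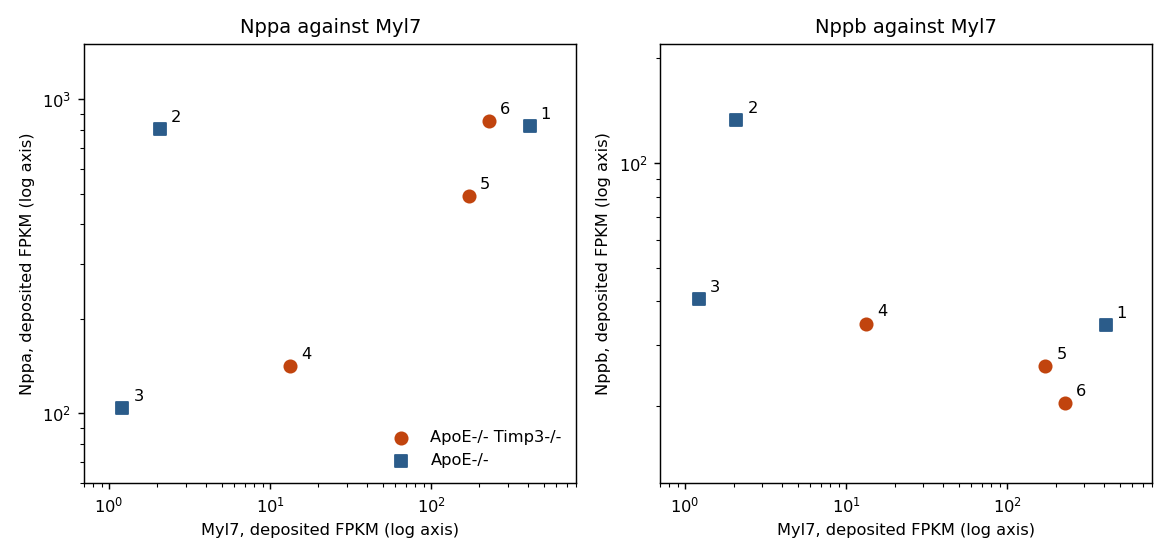
Deposited FPKM of Nppa (left) and Nppb (right) against that of the atrial gene Myl7, both axes logarithmic, for the 3 double mutant libraries (circles) and the 3 ApoE-/- libraries (squares), labelled by library. Library 2 has Nppa at 802 FPKM with Myl7 at 2.09, whereas libraries 3 and 4 have Nppa at 104 and 142.

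Nppb, the BNP gene, had a lower mean in the double mutants, and a single ApoE-/- library carried most of that gap. It was at 34.5, 26.0 and 20.4 FPKM in libraries 4, 5 and 6 of the double mutants, against 34.2, 133 and 40.7 FPKM in libraries 1, 2 and 3 of ApoE-/- hearts. Library 2 stood far above the rest, and library 4 of the double mutants lay just above library 1, so the groups overlapped. The scaled means were 27.7 ± 6.90 in double mutants and 68.6 ± 55.7 in ApoE-/- hearts (SD, n = 3 each). The log2 difference was -1.02 ± 0.51, with an interval of -2.22 to 0.19 (limma unadjusted p = 0.086, adjusted p = 0.497). Without library 2 the difference was -0.40 (limma adjusted p = 0.640, over all alternatives 0.225 to 0.686), and without library 1 it was -1.47. Libraries 2, 3 and 4, those with low Myl7, were also the 3 highest for Nppb. With Myl7 as a covariate the difference was -0.57 (limma adjusted p = 0.597). Among high-Myl7 libraries (5 and 6 against 1) it was -0.27, and among low-Myl7 libraries (4 against 2 and 3) it was -1.16. The part of atrial tissue in the Nppb values was not tested. The authors' interval for library 2 was 129 to 138 FPKM and that for library 3 was 37.6 to 43.8.

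The assembly also touched Nppb. Libraries 5 and 1 each held a short assembled transcript without strand over the first exon of Nppb, at 147360013 to 147360291 in library 5 and 147360018 to 147360255 in library 1, which was given to no gene. With their share added, Nppb was at 30.1 FPKM in library 5 and 41.7 in library 1, and the log2 difference was -1.04 (limma adjusted p = 0.445). Relative to Nppb, Nppa was 4.10, 18.8 and 41.8 times as high in libraries 4, 5 and 6, against 24.04, 6.02 and 2.55 times in libraries 1, 2 and 3. The ratio was highest in the 3 libraries with high Myl7 and lowest in the 3 with low Myl7, in both genotypes.

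Library 2 was also highest for further stretch and load genes. Ankrd1, a stretch-responsive muscle ankyrin protein, was at 216, 190 and 112 FPKM in the double mutants, against 126, 591 and 168 FPKM in ApoE-/- hearts, and its scaled level in library 2 was 2.77 times the highest other library's. Rcan1, the calcineurin inhibitor that calcineurin itself induces, was at 8.38, 7.49 and 7.36 FPKM in the double mutants and at 12.2, 20.5 and 10.1 in ApoE-/- hearts. Every double mutant lay below every ApoE-/- heart (log2 difference -0.68, limma unadjusted p = 0.025, adjusted p = 0.346), and without library 2 the difference was -0.39. Xirp2, an actin-binding protein of the intercalated disc, was at 102, 81.1 and 82.8 FPKM in the double mutants and 104, 149 and 109 in ApoE-/- hearts. Of the 12 tested genes of the load list, 6 had their highest scaled level in library 2 (Ankrd1, Rcan1, Xirp1, Xirp2, Ccn1 and Ccn2), against 18.8% of all tested genes. Of these, all but Rcan1 were chosen for mention after their values were seen. The margin of library 2 was often small. Its scaled level was 1.87 times the highest other library's for Rcan1, 1.26 times for Xirp2 and 1.03 times for Xirp1.

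The remaining 6 tested genes of the load list had their highest scaled level in another library. Myh7, the slow myosin heavy chain that rises in the loaded mouse ventricle, was at 151, 105 and 113 FPKM in the double mutants, against 88.1, 74.5 and 74.0 FPKM in ApoE-/- hearts, with library 2 near the bottom. Its scaled means were 125 ± 19.8 in double mutants and 76.7 ± 3.26 in ApoE-/- hearts (SD, n = 3 each; log2 difference 0.69, limma unadjusted p = 0.0018, adjusted p = 0.234). Tnni1, the slow skeletal troponin I of the fetal heart, was at 2.25, 2.56 and 1.91 FPKM in the double mutants, against 1.32, 0.92 and 0.84 in ApoE-/- hearts (log2 difference 0.73, limma unadjusted p = 0.0019, adjusted p = 0.234). Of the 12 tested genes of the load list, 6 lay above 0 and 6 below, with a median of -0.039. At an unadjusted p under 0.05 (limma), 2 lay upward and 1 downward, against 6.96% and 5.23% of all tested genes. None passed the adjusted threshold. Nppa and Nppb are not in that list.

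**Figure D3:**
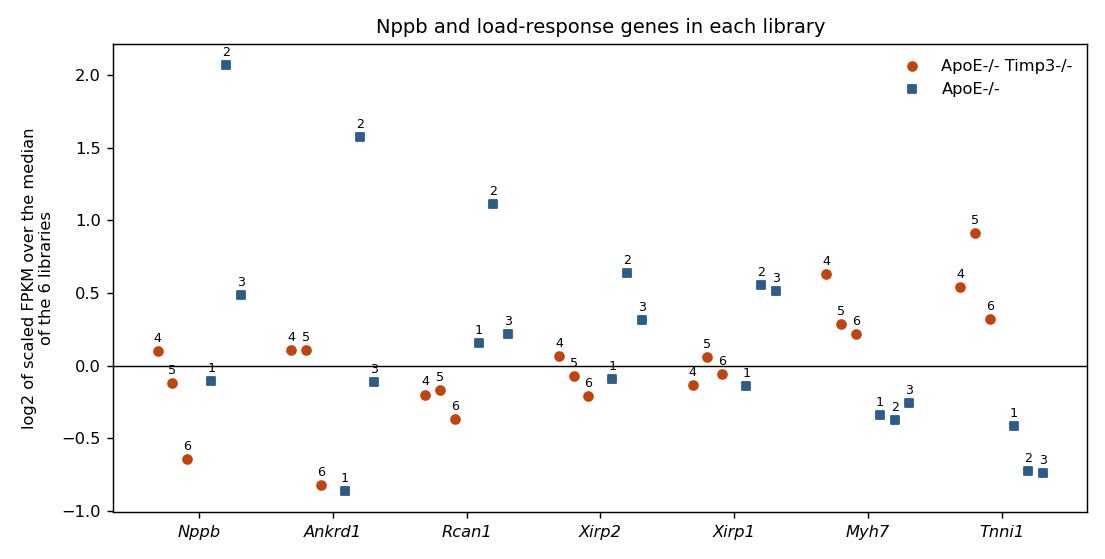
Scaled FPKM of Nppb and of 6 load-response genes in each library, as log2 over the median of the 6 libraries (y axis), for the double mutants (circles, left of each gene) and ApoE-/- hearts (squares, right), labelled by library. Library 2 is highest for Nppb, Ankrd1, Rcan1, Xirp2 and Xirp1, while Myh7 and Tnni1 are higher in all 3 double mutants.

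None of the transcription factors known to act on the peptide genes passed the test. Of 16 tested regulators, 8 lay above 0 and 8 below, with a median of 0.0041 and none at an unadjusted p under 0.05. The smallest p belonged to Gata6, a GATA factor of heart muscle, at 9.33, 10.8 and 14.8 FPKM in the double mutants, against 12.5, 7.35 and 8.22 FPKM in ApoE-/- hearts (log2 difference 0.36, limma adjusted p = 0.530). Hand2, a factor of heart development, had a log2 difference of 0.42 and Klf13, a zinc finger partner of GATA4, of 0.17, and the groups overlapped for both.

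Corin, the pro-ANP convertase, was at 27.1, 31.8 and 40.9 FPKM in libraries 4, 5 and 6 of the double mutants, against 39.4, 19.1 and 26.6 FPKM in libraries 1, 2 and 3 of ApoE-/- hearts. Libraries 1, 5 and 6, those with high Myl7, were the 3 highest and library 2 the lowest, so the groups overlapped. Scaled Corin averaged 34.2 ± 7.06 in double mutants and 27.2 ± 7.53 in ApoE-/- hearts (SD, n = 3 each; log2 difference 0.33, interval -0.24 to 0.91, limma adjusted p = 0.641). Corin (chromosome 5, 72691264 to 72895779, - strand) thus stood at its lowest in the library where Nppa was high without Myl7. Without library 2 the Corin difference was 0.11, and with Myl7 as a covariate it was 0.11 (limma adjusted p = 0.828). The part of atrial tissue in the Corin values was not tested. Assembled transcripts held 61.6% of the Corin FPKM in library 4 and none in libraries 5 and 6. They held 18.8% and 48.8% in libraries 1 and 3 and none in library 2.

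Npr1, the receptor through which ANP and BNP raise cyclic GMP, had the smallest p of the 10 members. It was at 2.84, 2.50 and 2.99 FPKM in libraries 4, 5 and 6 of the double mutants, against 5.19, 3.50 and 3.35 FPKM in libraries 1, 2 and 3 of ApoE-/- hearts. All 3 double mutants lay below all 3 ApoE-/- hearts, library 1 being well above the other 2. The scaled means were 2.84 ± 0.101 in double mutants and 3.86 ± 0.520 in ApoE-/- hearts (SD, n = 3 each). The log2 difference was -0.33 ± 0.12, with an interval of -0.62 to -0.045 (limma unadjusted p = 0.029, adjusted p = 0.360), so it did not pass over all genes. With 1 library left out the unadjusted p was 0.030 without library 2 and 0.053 to 0.099 without any of the others (limma). With reference transcripts alone, Npr1 (chromosome 3, 90254513 to 90269788, - strand) had a log2 difference of -0.23 (limma adjusted p = 0.660, over all alternatives 0.154 to 0.660).

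Npr2, the receptor for C-type natriuretic peptide, was the highest of the 3 receptor genes and varied least among libraries. It was at 7.71, 7.95 and 6.88 FPKM in the double mutants, against 8.24, 9.18 and 8.38 FPKM in ApoE-/- hearts, so all 3 double mutants were lower as deposited, and after scaling the groups overlapped. Scaled Npr2 averaged 7.75 ± 1.05 in double mutants and 8.43 ± 1.18 in ApoE-/- hearts (SD, n = 3 each; log2 difference -0.11, interval -0.45 to 0.24, limma adjusted p = 0.814). With reference transcripts alone the log2 difference was -0.58 (limma adjusted p = 0.587, over all alternatives 0.360 to 0.970). In library 1 an assembled transcript of the antisense gene Gm12473, at 3.77 FPKM, overlapped Npr2 (chromosome 4, 43644807 to 43664116, + strand), and the files do not say that strand was used. Nppc, the gene of its ligand, was listed at 0.34, 0 and 0.21 FPKM in the double mutants and at 0.38, 0.65 and 0.054 FPKM in ApoE-/- hearts, too low to be tested.

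Npr3, the clearance receptor, was highest in the libraries with high Myl7. It was at 2.49, 3.88 and 4.52 FPKM in libraries 4, 5 and 6 of the double mutants, against 5.56, 2.57 and 2.58 FPKM in libraries 1, 2 and 3 of ApoE-/- hearts. Libraries 1, 5 and 6 were the 3 highest, and the genotypes overlapped. The log2 difference was 0.12 with an interval of -0.47 to 0.71 (limma adjusted p = 0.890); with Myl7 as a covariate, chosen after seeing the data, it was -0.17 (limma adjusted p = 0.623, over all alternatives 0.316 to 0.999). With reference transcripts alone it was 0.90 (limma adjusted p = 0.547). Among high-Myl7 libraries (5 and 6 against 1) the log2 difference was -0.095, and among low-Myl7 libraries (4 against 2 and 3) it was -0.099. Fat markers summed to a scaled 1.16, 30.7 and 3.20 in the double mutants and to 168, 4.52 and 3.94 in ApoE-/- hearts, so library 1, the highest for Npr3, was also the highest for fat. Ucp1, the brown fat uncoupling protein, was listed at 0, 0.035 and 0 FPKM in the double mutants and 31.6, 0.040 and 0 FPKM in ApoE-/- hearts. The part of atrial tissue and of fat in the Npr3 values was not tested. In library 3, all of the FPKM of Npr3 (chromosome 15, 11769651 to 11835429, - strand) was in assembled transcripts, so the reference transcripts were listed at 0 there.

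Within the sum of the 3 receptor genes, Npr1 held 21.8%, 17.4% and 20.8% in libraries 4, 5 and 6 of the double mutants, against 27.3%, 23.0% and 23.4% in libraries 1, 2 and 3 of ApoE-/- hearts. Every double mutant had a smaller Npr1 share than every ApoE-/- heart. The mean share was 20.0% ± 2.29 in double mutants and 24.6% ± 2.40 in ApoE-/- hearts (SD, n = 3 each). Npr2 held 47.8% to 59.1% in double mutants and 43.4% to 60.2% in ApoE-/- hearts, and Npr3 held 19.1% to 31.4% in double mutants and 16.9% to 29.3% in ApoE-/- hearts. These shares were not tested.

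Beyond the members, 15 of 21 genes of natriuretic peptide processing and cyclic GMP signalling were tested, of which 9 lay above 0 and 6 below, with a median of 0.075 and none past the adjusted threshold. Rgs2, a regulator of G protein signalling that cyclic GMP-dependent kinase activates, was at 34.6, 33.8 and 39.0 FPKM in the double mutants, against 29.0, 11.7 and 18.3 FPKM in ApoE-/- hearts. All 3 double mutants were higher, at 36.7 ± 2.50 scaled FPKM against 18.8 ± 6.73 in ApoE-/- hearts (SD, n = 3 each; log2 difference 0.99, limma unadjusted p = 0.0057, adjusted p = 0.257). It was the only gene of the 15 with an unadjusted p under 0.05. Gucy1b1, a subunit of the nitric oxide-activated guanylyl cyclase, was at 2.99, 2.64 and 3.56 FPKM in the double mutants and 5.10, 4.31 and 3.27 in ApoE-/- hearts (log2 difference -0.29, limma adjusted p = 0.415). Mme, the gene of neprilysin, which degrades natriuretic peptides, was at 0.44, 0.85 and 0.86 FPKM in the double mutants and 2.94, 0.75 and 1.21 in ApoE-/- hearts, with library 1 alone high.

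**Figure D4:**
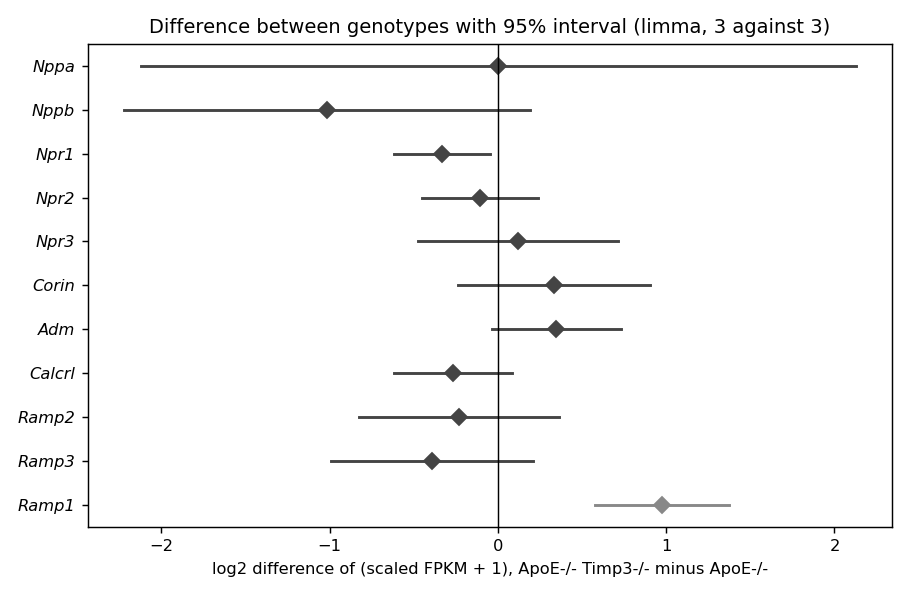
Log2 difference of the scaled FPKM plus 1, double mutants minus ApoE-/- hearts (x axis), for the 10 members and for Ramp1 (grey, a gene outside the list), with 95% intervals from limma. Only the intervals of Npr1 (-0.62 to -0.045) and Ramp1 (0.58 to 1.37) exclude 0, before adjustment over all tested genes.

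Adm, the adrenomedullin gene, had a higher mean in the double mutants, and the groups overlapped. It was at 3.80, 3.01 and 2.84 FPKM in libraries 4, 5 and 6 of the double mutants, against 2.26, 3.09 and 2.02 FPKM in libraries 1, 2 and 3 of ApoE-/- hearts. Library 2 lay among the double mutants, and the other 2 ApoE-/- hearts lay below all of them. The scaled means were 3.30 ± 0.455 in double mutants and 2.40 ± 0.595 in ApoE-/- hearts (SD, n = 3 each; log2 difference 0.35, interval -0.037 to 0.73, limma unadjusted p = 0.070, adjusted p = 0.460). Adm (chromosome 7, 117771175 to 117773331, + strand) has a single short transcript, and the authors' intervals were 3.03 to 4.57 FPKM in library 4, 2.55 to 3.63 in library 2 and 1.48 to 2.55 in library 3. On the log2 scale, among high-Myl7 libraries the double mutants (5 and 6) lay 0.47 above ApoE-/- library 1. Among low-Myl7 libraries the double mutant (4) lay 0.39 above ApoE-/- libraries 2 and 3.

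Adm is a target of hypoxia, and other such targets were therefore listed. Of 14 tested hypoxia targets, 4 lay above 0 and 10 below, with a median of -0.16. Downward, 2 had an unadjusted p under 0.05 (limma), as had 5.23% of all tested genes, and none passed the adjusted threshold. Egln3, which hydroxylates hypoxia-inducible factors when oxygen is present, was at 6.99, 5.27 and 5.75 FPKM in the double mutants, against 12.6, 13.1 and 11.5 FPKM in ApoE-/- hearts. The groups did not overlap (log2 difference -0.88, limma unadjusted p = 1.89e-04, adjusted p = 0.186). P4ha1, a collagen prolyl hydroxylase subunit, was at 5.70, 5.38 and 6.47 FPKM in the double mutants and 9.42, 9.32 and 6.91 in ApoE-/- hearts (log2 difference -0.41, limma adjusted p = 0.281). Slc2a1, the glucose transporter GLUT1, was at 3.16, 2.34 and 3.29 FPKM in the double mutants and 3.81, 5.23 and 3.62 in ApoE-/- hearts (log2 difference -0.35, limma adjusted p = 0.456). The Adm promoter window, 250 bases before to 50 after the start, held no ACGTG, the core letters of a hypoxia response element. These letters stood in 19.6% of all windows. Sequence outside the window was not searched, so a site farther away would be missed. The part of hypoxia in the Adm values was not tested.

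Calcrl, the receptor that adrenomedullin shares with calcitonin gene-related peptide, was at 6.81, 8.73 and 8.11 FPKM in libraries 4, 5 and 6 of the double mutants, against 12.1, 9.22 and 9.40 FPKM in libraries 1, 2 and 3 of ApoE-/- hearts. As deposited, all 3 double mutants were lower; after scaling, library 5 overtook library 2. Scaled Calcrl averaged 8.14 ± 1.55 in double mutants and 9.92 ± 0.661 in ApoE-/- hearts (SD, n = 3 each; log2 difference -0.27, interval -0.62 to 0.083, limma adjusted p = 0.542). With reference transcripts alone, Calcrl (chromosome 2, 84170783 to 84265568, - strand) had a log2 difference of -0.58 (limma adjusted p = 0.403, over all alternatives 0.302 to 0.759).

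Ramp2, the partner that makes the main adrenomedullin receptor of blood vessels, was at 29.3, 16.6 and 18.7 FPKM in libraries 4, 5 and 6 of the double mutants, against 21.1, 31.5 and 26.5 FPKM in libraries 1, 2 and 3 of ApoE-/- hearts. Libraries 2, 3 and 4, those with low Myl7, were the 3 highest, and the genotypes overlapped. Scaled Ramp2 averaged 21.9 ± 5.87 in double mutants and 26.1 ± 7.04 in ApoE-/- hearts (SD, n = 3 each; log2 difference -0.23, interval -0.83 to 0.36, limma adjusted p = 0.758). With Myl7 as a covariate the difference of Ramp2 (chromosome 11, 101107342 to 101120860, + strand) was 0.065 (limma adjusted p = 0.849, over all alternatives 0.209 to 0.934). The neighbouring gene Vps25 overlaps a Ramp2 transcript that was listed at 0 in every library. Cufflinks put all of the Ramp2 FPKM on a transcript of 1178 nt in libraries 4 and 6, and divided it with transcripts of 755 or 424 nt in library 5 of the double mutants and in all 3 ApoE-/- libraries. FPKM depends on transcript length, and the effect of that split on the Ramp2 sum and shares was not tested.

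Ramp3, the other adrenomedullin partner, was the lowest member. It was at 2.47, 1.07 and 1.02 FPKM in the double mutants and at 1.85, 3.15 and 2.03 FPKM in ApoE-/- hearts. Libraries 2, 3 and 4, those with low Myl7, were the 3 highest, as for Ramp2, and the genotypes overlapped. Scaled Ramp3 averaged 1.54 ± 0.764 in double mutants and 2.31 ± 0.776 in ApoE-/- hearts (SD, n = 3 each). The log2 difference was -0.39, with an interval of -0.99 to 0.21 (limma adjusted p = 0.602). With Myl7 as a covariate the difference was -0.14 (limma adjusted p = 0.779). The part of atrial tissue in the Ramp3 values was not tested.

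Ramp1, the partner for calcitonin gene-related peptide and no member of the list, was higher in all 3 double mutants, although it did not pass over all genes. It was at 4.48, 3.65 and 3.14 FPKM in libraries 4, 5 and 6 of the double mutants, against 2.03, 1.06 and 1.51 FPKM in libraries 1, 2 and 3 of ApoE-/- hearts. All 3 double mutants were above all 3 ApoE-/- hearts, at 3.86 ± 0.665 scaled FPKM against 1.48 ± 0.368 in ApoE-/- hearts (SD, n = 3 each). The log2 difference was 0.97, with an interval of 0.58 to 1.37 (limma unadjusted p = 6.33e-04, adjusted p = 0.228, over all alternatives 0.0492 to 0.546). It passed with libraries weighted by their spread, at a log2 difference of 0.87. On the log2 scale, among high-Myl7 libraries the double mutants (5 and 6) lay 0.74 above ApoE-/- library 1. Among low-Myl7 libraries the double mutant (4) lay 1.21 above ApoE-/- libraries 2 and 3.

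Ramp2 made up most of the Ramp sum in every library, and the Ramp1 part of it was larger in the double mutants. Ramp1 held 12.3%, 17.1% and 13.7% of the summed FPKM of the 3 Ramp genes in libraries 4, 5 and 6 of the double mutants, against 8.13%, 2.97% and 5.02% in libraries 1, 2 and 3 of ApoE-/- hearts. Ramp2 held 80.8%, 77.9% and 81.8% in the double mutants and 84.4%, 88.2% and 88.2% in ApoE-/- hearts. Neither share overlapped between the groups; the means were 14.4% ± 2.45 against 5.37% ± 2.60 for Ramp1 and 80.2% ± 2.04 against 87.0% ± 2.18 for Ramp2, double mutants against ApoE-/- hearts (SD, n = 3 each). The Ramp3 share was 4.48% to 6.81% in double mutants and 6.76% to 8.81% in ApoE-/- hearts. None of these shares was tested. Ramp2 exceeded Calcrl 1.91 to 4.31 times in double mutants and 1.74 to 3.42 times in ApoE-/- hearts.

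**Figure D5:**
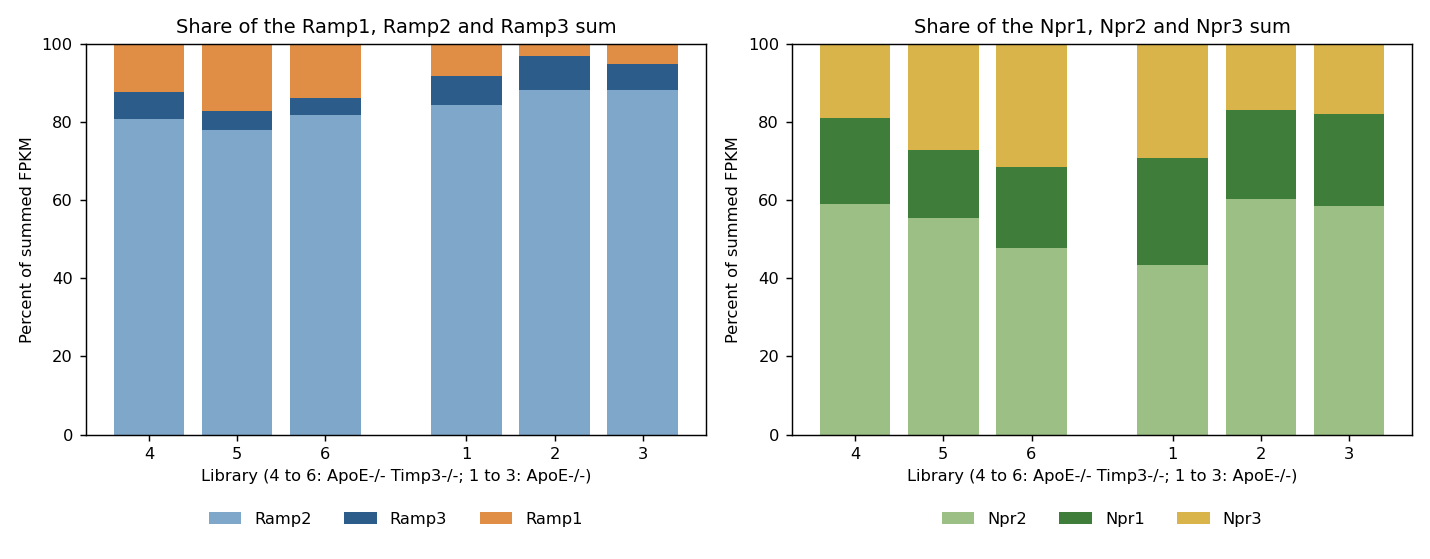
Share (percent) of the summed FPKM of Ramp1, Ramp2 and Ramp3 (left) and of Npr1, Npr2 and Npr3 (right) held by each gene, with the double mutant libraries 4 to 6 left of the ApoE-/- libraries 1 to 3. Ramp1 holds 12.3% to 17.1% in the double mutants and 2.97% to 8.13% in ApoE-/- hearts.

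Of the 21 further genes of the adrenomedullin pathway, 17 were tested. Of these, 9 lay above 0 and 8 below, with a median of 0.010, and none passed the adjusted threshold. At an unadjusted p under 0.05 (limma), 1 lay upward and 2 downward, against 6.96% and 5.23% of all tested genes. Those downward were Crcp, a protein of the calcitonin gene-related peptide receptor complex, and Foxo1, a forkhead transcription factor. Crcp was at 2.80, 2.14 and 2.68 FPKM in the double mutants, against 3.64, 3.48 and 3.15 FPKM in ApoE-/- hearts (log2 difference -0.27, limma adjusted p = 0.394). Foxo1 was at 2.73, 2.53 and 3.30 FPKM in the double mutants and 5.12, 3.51 and 3.39 in ApoE-/- hearts (log2 difference -0.31, limma adjusted p = 0.398). The peptide genes Adm2, Calca and Calcb and the receptor gene Calcr were below the filter.

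Npr1, Calcrl, Ramp2 and Ramp3 are all made by endothelium, and markers of blood endothelium also lay lower in the double mutants. All 14 blood endothelial markers had a log2 difference below 0, with a median of -0.35, and none was listed at 0 throughout. Of the 14, 4 had an unadjusted p under 0.05 (limma), against 5.23% of all tested genes in that direction. The summed scaled level of these markers was 265, 209 and 207 in the double mutants and 244, 316 and 270 in ApoE-/- hearts, so the sums overlapped. Libraries 2, 3 and 4, those with low Myl7, held the 3 highest sums. Over the 6 libraries, Pearson's r with the endothelial sum was 0.88 for Ramp2 and 0.98 for Ramp3. It was 0.35 for Npr1 and 0.0028 for Calcrl, and these values are given as a description. Erg, an endothelial transcription factor, was at 2.61, 2.35 and 3.00 FPKM in the double mutants, against 4.77, 4.35 and 4.53 FPKM in ApoE-/- hearts (log2 difference -0.55, limma adjusted p = 0.234). Other endothelial lists did not lie lower. Endocardial and venous markers, 4 tested, had 2 above 0 and 2 below, with a median of 0.076. Lymphatic markers, 5 tested, had 3 above 0 and 2 below, with a median of 0.013. Of 9 tested markers of smooth muscle and pericytes, 7 lay below 0, with a median of -0.34. Their summed level was 301 to 336 in double mutants and 291 to 423 in ApoE-/- hearts. Notch3, a receptor of these mural cells, had a log2 difference of -0.42 (limma adjusted p = 0.257). Above 0 were Acta2, smooth muscle actin, at 53.5, 33.2 and 34.5 FPKM in the double mutants and 35.1, 22.0 and 24.5 FPKM in ApoE-/- hearts (log2 difference 0.62, limma adjusted p = 0.294), and Tagln (0.15, limma adjusted p = 0.807), both named after their values were seen. Fibroblast markers lay the same way as the blood endothelial ones. All 11 were below 0, with a median of -0.35. Of the 11, 5 had an unadjusted p under 0.05 (limma), against 5.23% of all tested genes in that direction. The summed fibroblast level was 644 to 766 in double mutants and 711 to 843 in ApoE-/- hearts. Col3a1, a fibrillar collagen, had a log2 difference of -0.98 (limma adjusted p = 0.186). The part of endothelial, mural and fibroblast content in the receptor values was not tested.

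By Pearson's r over the 6 libraries, among 5651 genes with a mean FPKM of at least 5, the profiles most like that of Nppa were those of Rnft1 (r = 0.962), Pip4k2c (0.962) and Ddb1 (0.957). For Calcrl they were Dyrk1a (0.986), Zfand5 (0.981) and Tacc1 (0.979), and for Adm they were Gm16288 (0.989), Jun (0.989) and Rpl13a-ps1 (0.988). These are the highest of 5651 values each, over 6 points that share library and scaling, and are given as a description.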

How the data were processed

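The authors deposited a Cufflinks transcript file per library, holding FPKM and coverage, per the file headers; column 9, the attribute text, carries these values and has no unit of its own. Per the submitters' processing notes, TopHat, Bowtie and Cufflinks were used with build NCBIM37; their versions and settings, and whether strand was used, are not stated. No read counts are in the files, so limits from counting are known only through the authors' Cufflinks intervals. Beyond calling the controls littermates, the labels do not say how samples relate, so the p-values reflect only the spread among these 6 libraries.

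FPKM were summed per gene. Reference transcripts went to genes by transcript ID (82348), gene ID (5266) or exon overlap of at least 50% (6239), and 39174 of 70603 assembled transcripts of a library's own were added by exon overlap at a length of at least 300 nt. Tested genes had a mean FPKM of 1 or more and their longest transcript at 300 nt or more. Libraries were scaled by median of ratios, with factors of 0.896 to 1.17. limma 3.58.1 (R 4.3.3) compared log2(scaled FPKM + 1) two-sided with a trended prior, adjusting by Benjamini-Hochberg over 11386 genes. For low genes, differences on this log2 scale are smaller than the true fold. Values by library are as deposited, and means ± SD are scaled. The fit was tested on simulated data.

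Members, lists and tests were chosen with earlier results of these data known. The genes named are the members, Timp3, Myl7, Myl4, Sln, the 3 genes of smallest p in each pathway list, the gene of smallest p in a marker list and the 3 most similar profiles of Nppa, Calcrl and Adm; Ankrd1, Xirp1, Xirp2, Nppc, Gm12473, Vps25, Pam, Pcsk6, Ccn1, Ccn2, Acta2, Tagln and the genes below the filter were named after their values were seen. Gene symbols came from a later annotation, and coordinates of genes are from the files.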

Additional observations from a re-analysis of the deposited data

How the results depend on the processing

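No member passed the adjusted threshold under any of 18 alternatives. The direction of Nppb, Npr1, Npr2, Corin, Adm, Calcrl and Ramp3 was the same under every alternative that gave a value; Npr1, Npr3, Adm and Ramp3 have none at a mean FPKM of at least 5. The Nppa difference turned negative without further scaling (-0.0715), after quantile normalization (-0.19), on scaling to the same total (-0.19), with a pseudocount of 10 (-0.0022), at a mean FPKM of at least 5 (-0.043), with reference transcripts only (-0.01) and with Myl7 as a covariate (-0.75). It was 1.52 with libraries weighted by their spread, and ran from -0.91 to 0.77 with 1 library left out. Npr3 was at -0.025 on scaling to the same total and -0.17 with Myl7 as a covariate, was at 0.35 with libraries weighted by their spread and 0.90 with reference transcripts only, and ran from -0.012 to 0.34 with 1 library left out. With reference transcripts only, Npr2 was at -0.58 and Calcrl at -0.58. Ramp2 was at 0.065 with Myl7 as a covariate. Nppa relative to Myl7 stayed negative, from -4.57 to -1.08, while the difference of Myl7 itself stayed positive, from 1.38 to 4.98. The cause was not tested for any of these. Of all genes, 5 passed; 3 passed with a pseudocount of 0.1, 1 with a pseudocount of 10, 9 at a mean FPKM of at least 0.1, 1 at a mean FPKM of at least 5, 102 with libraries weighted by their spread, 1 with Myl7 as a covariate, and 3 to 10 with 1 library left out (3 without library 1, 10 without library 2 or 4). Gata6 was at -0.13 and Klf13 at -0.018 with reference transcripts only. Ankrd1 ran from -0.94 to 0.28 with 1 library left out, the highest without library 2, and was at 0.11 with Myl7 as a covariate, where Myl4 was at -0.24 and Sln at -0.76. Scaling to the same total moved the median of all genes to -0.159, and on that scale and with weighted libraries Egln3 passed (limma adjusted p = 0.038 and 0.026, over all alternatives 0.026 to 0.531). The Myl7 covariate, for results other than Nppa and Nppb, and the added Nppb transcripts were chosen after seeing the data. No paired analysis was possible because the labels give no replicate number shared between the groups. Reads per gene are unknown, which limits what the low members Ramp3, Adm and Npr1 can show.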

Other observations

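Pam, the enzyme that amidates adrenomedullin and is abundant in atrial granules, was at 261, 354 and 457 FPKM in libraries 4, 5 and 6 of the double mutants, against 495, 275 and 197 FPKM in libraries 1, 2 and 3 of ApoE-/- hearts. Libraries 1, 5 and 6, those with high Myl7, held the 3 highest values, as for Npr3 (log2 difference 0.29, limma adjusted p = 0.748). Bmp10, a growth factor of atrial muscle, was listed at 0, 10.1 and 32.5 FPKM in the double mutants and at 0.48, 0.022 and 0.17 FPKM in ApoE-/- hearts, so library 1 was low for Bmp10 although it was the highest for Myl7. Pcsk6, the protease that activates corin, was at 9.83, 7.80 and 8.64 FPKM in the double mutants and at 11.6, 11.6 and 9.16 FPKM in ApoE-/- hearts (log2 difference -0.20, limma adjusted p = 0.552). Its scaled values did not overlap between the groups.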
